A study of Mus musculus with 6 samples.

Results

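The semaphorin, plexin, netrin, and Slit-Robo genes of the mouse retina were examined at postnatal day 7 (P7). Members were taken by symbol: every gene starting with Sema, Plxn, or Unc5, together with named neuropilins, netrins, netrin-Gs, *Dcc*, *Neo1*, Slits, and Robos. The deposited table held 51 such genes among 21744, and 47 of them had a mean FPKM of 0.1 or more across the 6 libraries and were tested with 15200 genes in all. FPKM is the number of sequenced fragments corrected for transcript length and sequencing depth, so levels of different genes can be compared. *Ntn3* was not analysed here. The prefix also brought in *Unc50*, a Golgi membrane protein gene, and *Unc5cl*, neither of which is a netrin receptor gene.

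The libraries came from 3 control mice and 3 mice labelled *Lhx4* null, on a mixed background of C57BL/6J and 129S6, with the retinas of 1 mouse per library. In the study, the *Lhx4* null genotype is *Lhx4* tdT/loxP; *Six3-Cre*, in which Cre driven by *Six3* removes the conditional allele in the retina and the other allele carries a tdTomato reporter. Which control genotype was sequenced, and whether it carried Cre or the reporter, is not given in the sources used here, so effects of *Lhx4*, Cre, and reporter cannot be told apart. *Lhx4* itself was at 20.9, 23.8, and 19.1 FPKM in control and at 31.2, 30.3, and 29.0 FPKM in the mutant libraries. This gene-level value does not isolate the deleted part, and taken alone it goes against the label. The mutant libraries are therefore written of as labelled null. Other genes went with the label. *Bhlhe23*, among the most lowered genes in the study, was at 10.2, 13.0, and 10.6 FPKM in control. In the mutant libraries *Bhlhe23* was at 0.814, 0.563, and 0.830 FPKM. Of the 14 bipolar markers given below, 12 were lower by log2 fold change and 2 were higher. The whole retina was sequenced, so fewer cells of a type and less RNA per cell cannot be told apart. Relative depth, read from the steps of the lowest values, was 76.8% to 100% of the deepest library in the control libraries and 46.7% to 65.9% in the labelled nulls.

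Semaphorins are ligands that act through plexins, and the secreted class 3 members also use neuropilins as co-receptors. Netrins attract or repel growing axons through DCC, neogenin, and UNC5 receptors, while Slits act mostly as repellents through Robo receptors. In the retina, these systems are known for steering ganglion cell axons to the optic nerve and for keeping the processes of amacrine and bipolar cells within the proper layers of the inner plexiform layer.

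Among the 47 genes, *Slit2* was lower in the labelled nulls after adjustment over all genes tested, and 0 genes were higher by that measure (limma with Benjamini-Hochberg adjustment). At an adjusted p under 0.05, 0.138% of all genes tested were lower and 0.0855% were higher. At an unadjusted p under 0.05, 7 members were lower and 10 were higher, which is 14.9% and 21.3% of the members tested, beside 3.55% and 4.60% of all genes tested. The 7 lower genes were *Slit2*, *Slit3*, *Ntng1*, *Sema3d*, *Plxna4*, *Unc5d*, and *Plxna2*. *Slit3* passed the minimum level only through its control values (means of 0.206 and 0.0576 FPKM), so its place among the tested genes was not independent of its direction. Without control replicate 2 its unadjusted p was 0.065 (limma). With *Slit3* left out, 6 of 46 members (13.0%) were lower, all 6 without overlap. The 10 higher genes were *Ntng2*, *Sema3b*, *Robo3*, *Ntn4*, *Sema6d*, *Plxna1*, *Nrp2*, *Plxnb2*, *Neo1*, and *Sema5a*. The 3 labelled null values were all under the 3 control values in 7 members and all over them in 7, 14.9% of the members tested in each direction beside 6.13% and 8.10% of all genes tested.

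The median log2 fold change of the 47 genes was 0.11, with 33 genes above 0 and 14 below, and that of all genes tested was 0.01. Fold changes are those of FPKM + 0.1, labelled null minus control, a scale that understates the change of low genes. In 33 of the 47 genes the log2 fold change was smaller than 0.25 in size. Labelled null replicate 2 was the highest library of its group in 8 of the 10 higher genes and in 55.3% of all members tested, beside 35.9% of all genes tested. Without that library 4 members were higher at an unadjusted p under 0.05, beside 2.91% of all genes tested in that fit. There were 5 without control replicate 1 and 4 without control replicate 3, beside 2.78% and 2.49% of all genes, so calls over all genes were also fewer in these fits. Of the 17 genes, 5 lower (*Slit2*, *Ntng1*, *Sema3d*, *Plxna4*, and *Unc5d*) and 3 higher (*Ntng2*, *Sema3b*, and *Plxnb2*) kept an unadjusted p under 0.05 in every alternative in which they were tested, and the other 9 lost it in at least 1. The share of all genes tested that kept it in every alternative is not given here, so these counts stand without a comparison.

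**Figure D1:**
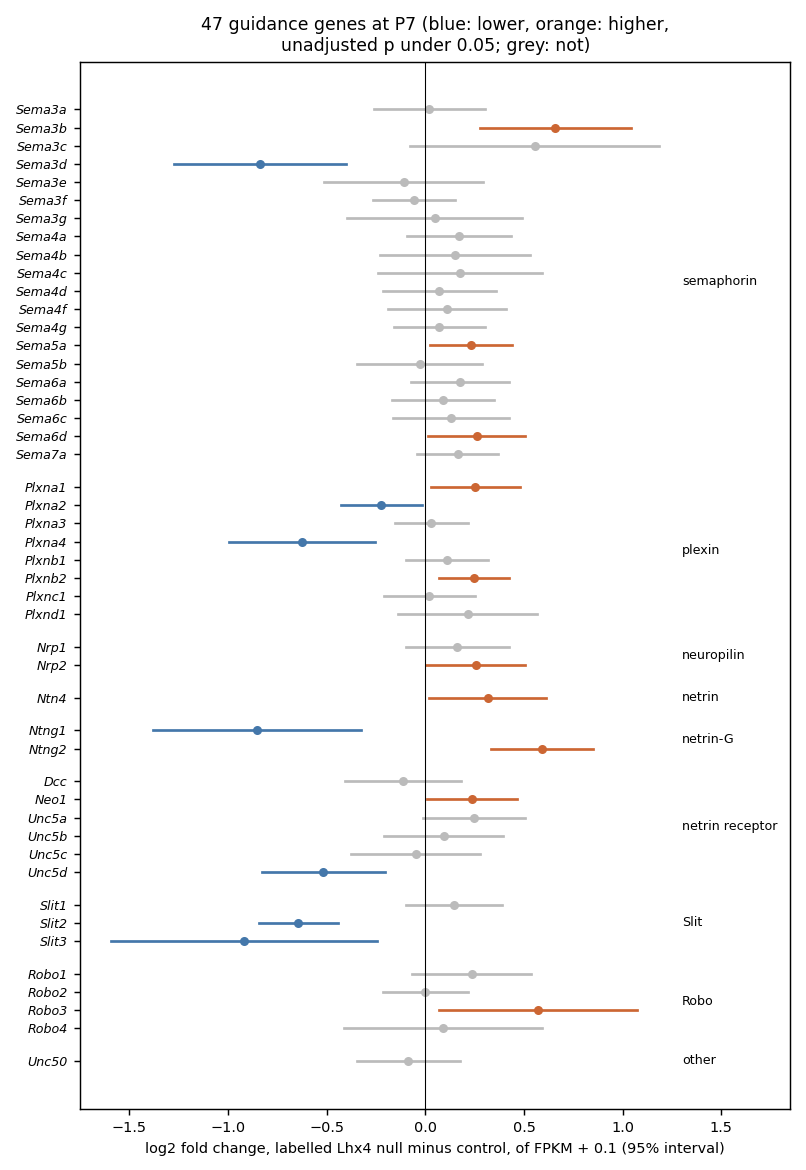
The log2 fold change of FPKM + 0.1 (horizontal axis, labelled null libraries minus control) is drawn for each of the 47 genes with its 95% interval from limma, grouped by family. Of the 17 genes in colour, 7 lie below 0 and 10 above, and *Ntng1* (-0.85) and *Ntng2* (0.59) lie on opposite sides.

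**Figure D2:**
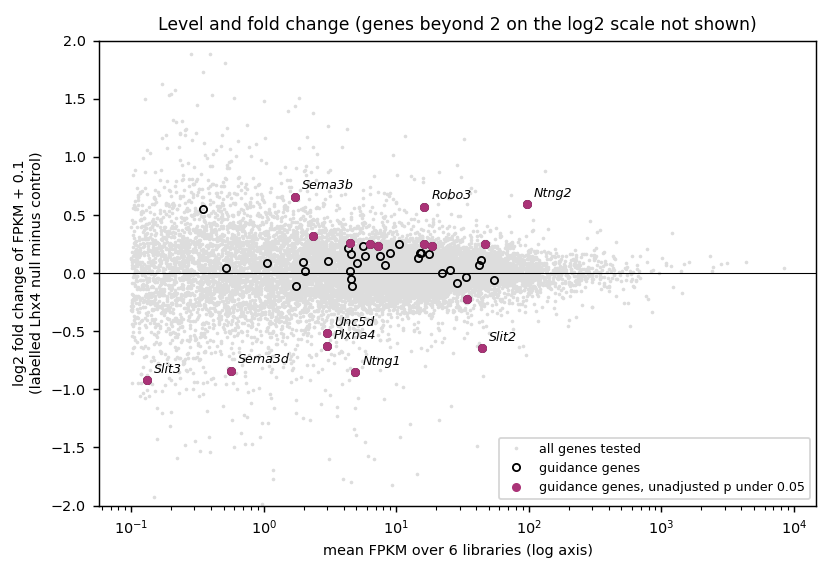
Mean FPKM over the 6 libraries (horizontal log axis) is plotted against the log2 fold change for 15200 genes in grey, the guidance genes as open circles, and those with an unadjusted p under 0.05 filled. *Slit2* and *Ntng2*, at means of 44.4 and 96.2 FPKM, stand away from 0 at levels where most genes lie close to it.

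Slits are large secreted proteins that repel axons through Robo receptors. *Slit2* (ENSMUSG00000031558) lies on GRCm38 chromosome 5, plus strand, at 47983138 to 48307733 by GENCODE vM21. Control replicates 1, 2, and 3 had 51.4, 59.6, and 51.5 FPKM, against 33.9, 37.4, and 32.5 FPKM in the labelled nulls. Every labelled null library lay below every control library, and the lowest control value exceeded the highest null value by more than the spread within either group. The means were 54.2 ± 4.7 and 34.6 ± 2.5 FPKM (SD, n = 3 each), 63.9% of control, a log2 fold change of -0.64 ± 0.087 (SE, limma adjusted p = 0.033). By p-value *Slit2* ranked 29 among the 15200 genes. Its log2 fold change lay between -0.70 and -0.57 in 14 alternatives and its unadjusted p reached at most 5.322e-04, but its adjusted p was above 0.05 in 9 of them (limma). It was between 0.084 and 0.13 in the 6 fits without 1 library, 0.084 without the filter on low values, 0.15 without the mean-variance trend, and 0.051 with the replicate number as a block.

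The promoter of *Slit2* is shown because it is the gene that passed the adjusted test. The RefSeq window on GRCm38.p6 runs from 250 bases before the start of transcription to 50 bases after it, at chr5:47982905-47983204 on the plus strand, with the transcribed bases in capitals:
Slit2: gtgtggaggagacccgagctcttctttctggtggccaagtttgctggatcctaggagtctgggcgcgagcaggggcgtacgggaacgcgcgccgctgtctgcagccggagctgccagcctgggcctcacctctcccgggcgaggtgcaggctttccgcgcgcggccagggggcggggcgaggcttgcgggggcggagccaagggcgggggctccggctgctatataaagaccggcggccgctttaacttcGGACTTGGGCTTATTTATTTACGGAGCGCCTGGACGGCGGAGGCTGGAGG
It holds 30 CG dinucleotides and 68.0% G and C, where the median over 32851 promoter windows of the same length was 7 CG dinucleotides and 52.7%.

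*Slit1* and *Slit3* did not share the level of *Slit2*. *Slit1* was at 5.54 ± 0.12 and 6.16 ± 0.68 FPKM (SD, n = 3 each) with overlapping groups, and the 95% interval of its log2 fold change ran from -0.10 to 0.39. *Slit3* was at 0.159, 0.309, and 0.151 FPKM in control and at 0.0555, 0.0541, and 0.0631 FPKM in the labelled nulls. All labelled null values of *Slit3* were below all control values. The log2 fold change of *Slit3* was -0.92 with the pseudocount of 0.1 FPKM, -0.19 with 1 FPKM, and -1.60 with 0.01 FPKM, so its size is set mostly by the pseudocount. Summed over the 3 genes, Slit expression was 57.1 to 65.6 FPKM in control and 38.0 to 44.3 FPKM in the labelled nulls.

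Of the 4 Slit receptors, 0 had groups that did not overlap, and 1 had an unadjusted p under 0.05. *Robo2*, the most abundant of them, was at 21.3, 24.6, and 20.9 FPKM in control and at 20.9, 24.4, and 21.4 FPKM in the labelled nulls. The groups coincided for *Robo2*, and the 95% interval of its log2 fold change ran from -0.22 to 0.21. *Robo3*, a divergent receptor known for its part in the crossing of the midline by axons, was at 14.4, 10.3, and 13.99 FPKM in control and at 14.02, 26.0, and 18.9 FPKM in the labelled nulls. Its groups overlapped, since labelled null replicate 1 lay within the control range, and the log2 fold change was 0.57 ± 0.22 (SE, limma adjusted p = 0.58). Without labelled null replicate 2 it was 0.35, with an unadjusted p of 0.11, and without control replicate 2 or labelled null replicate 3 its unadjusted p was 0.10 and 0.063 (limma). *Robo1* was at 5.16 ± 0.47 and 6.11 ± 0.96 FPKM, and *Robo4*, the endothelial member, at 1.02 ± 0.20 and 1.10 ± 0.28 FPKM (SD, n = 3 each), both with overlapping groups.

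The netrin-Gs are membrane-anchored relatives of netrins that do not bind the netrin receptors but bind synaptic adhesion proteins of the NGL family, and the 2 genes went in opposite directions. *Ntng2* (ENSMUSG00000035513, chromosome 2, 29194541 to 29253005, minus strand) had the highest level of all members, with 79.3, 71.5, and 78.3 FPKM in control and 112, 136, and 100.03 FPKM in the labelled nulls. The groups did not overlap, and the highest control value was 79.3 FPKM against a lowest labelled null value of 100.03 FPKM. The log2 fold change was 0.59 ± 0.11 (SE, limma unadjusted p = 7.198e-04, adjusted p = 0.13), and 14% of the exon bases of *Ntng2* are shared with *6530402F18Rik*, so that without strand their reads cannot be told apart there. *Ntng1* (ENSMUSG00000059857, chromosome 3, 109780040 to 110144011, minus strand) was at 5.85, 8.48, and 4.71 FPKM in control and at 4.35, 2.94, and 2.99 FPKM in the labelled nulls. Its groups did not overlap but came close, at 4.71 and 4.35 FPKM, and control replicate 2 stood highest. The log2 fold change was -0.85 ± 0.23 (SE, limma unadjusted p = 0.0056, adjusted p = 0.38).

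Within single libraries, *Ntng2* was 13.5, 8.43, and 16.6 times the level of *Ntng1* in the control libraries and 25.7, 46.3, and 33.5 times in the labelled nulls. This ratio does not depend on the scaling of a library. The promoters of both genes are shown because the genes are close relatives and differed in direction. The RefSeq windows on GRCm38.p6 lie on the minus strand at chr3:110143423-110143722 for *Ntng1* and at chr2:29248050-29248349 for *Ntng2*, with the transcribed bases in capitals:
Ntng1: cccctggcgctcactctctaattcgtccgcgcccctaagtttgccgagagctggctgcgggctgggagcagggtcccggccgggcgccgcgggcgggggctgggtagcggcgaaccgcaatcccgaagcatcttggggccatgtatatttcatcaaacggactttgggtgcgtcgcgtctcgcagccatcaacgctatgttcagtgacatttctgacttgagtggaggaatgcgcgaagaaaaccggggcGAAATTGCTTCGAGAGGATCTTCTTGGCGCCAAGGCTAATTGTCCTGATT
Ntng2: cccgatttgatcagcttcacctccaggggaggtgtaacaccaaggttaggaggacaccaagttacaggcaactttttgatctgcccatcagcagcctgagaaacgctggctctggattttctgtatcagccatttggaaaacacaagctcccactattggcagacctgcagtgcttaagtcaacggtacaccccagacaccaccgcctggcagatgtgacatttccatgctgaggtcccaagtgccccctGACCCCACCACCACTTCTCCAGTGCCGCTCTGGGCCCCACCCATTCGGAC
The *Ntng1* window holds 28 CG dinucleotides and that of *Ntng2* holds 6. On the minus strand the annotated *Ntng2* gene begins at 29253005, so its window lies at a start inside the gene. The annotated *Ntng1* gene begins at 110144011, close to its window. The CG counts are therefore not of like starts, and which start was used in these retinas was not tested.

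Of the secreted netrins, *Ntn4* passed the minimum level, at 2.23, 1.86, and 2.14 FPKM in control and 2.57, 2.80, and 2.44 FPKM in the labelled nulls. All labelled null values were above all control values, with a log2 fold change of 0.32 ± 0.13 (SE, limma adjusted p = 0.60). *Ntn1*, the classical netrin of the ventral midline, lay just under the minimum with a mean of 0.0986 FPKM, and *Slit3*, with 0.132 FPKM, just above it. *Ntn1* was at 0.104, 0.102, and 0.113 FPKM in control and at 0.0807, 0.128, and 0.0644 FPKM in the labelled nulls. *Ntn5*, *Plxnb3*, and *Unc5cl*, with means of 0.0252, 0.0760, and 0.0111 FPKM, were also under the minimum and were not tested.

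Among the netrin receptors, *Unc5d* was the member with the lowest p-value. UNC5 proteins mediate repulsion from netrin and also bind FLRT adhesion proteins. *Unc5d* (ENSMUSG00000063626, chromosome 8, 28646717 to 29219636, minus strand) was at 3.29, 3.92, and 3.39 FPKM in control and at 2.80, 2.32, and 2.21 FPKM in the labelled nulls. The groups did not overlap, and the log2 fold change was -0.52 ± 0.14 (SE, limma unadjusted p = 0.0050, adjusted p = 0.37). *Neo1*, which encodes neogenin, a receptor for netrins and for repulsive guidance molecules, was at 16.8, 18.3, and 15.8 FPKM and at 19.7, 22.5, and 18.1 FPKM. Labelled null replicate 3 of *Neo1* lay within the control range, and the log2 fold change was 0.24 ± 0.099 (SE, limma adjusted p = 0.60). *Dcc*, *Unc5a*, *Unc5b*, and *Unc5c* had overlapping groups and log2 fold changes of -0.11, 0.25, 0.09, and -0.05. *Unc50*, the highest of the genes taken with the receptors, was at 31.6, 24.8, and 33.2 FPKM and at 26.3, 28.1, and 29.4 FPKM, within the control range.

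The class 3 semaphorins are secreted ligands, and their 7 genes ran from 54.9 FPKM for *Sema3f* to 0.348 FPKM for *Sema3c* in mean level. *Sema3f*, known as a ligand of neuropilin-2, was at 55.9, 55.9, and 55.8 FPKM in control and, on both sides of these, at 50.2, 61.7, and 50.1 FPKM in the labelled nulls. *Sema3d* (ENSMUSG00000040254, chromosome 5, 12383385 to 12588948, plus strand) was at 0.762, 0.795, and 0.705 FPKM in control and at 0.441, 0.379, and 0.318 FPKM in the labelled nulls. Its labelled null mean was 50.4% of the control mean without overlap, a log2 fold change of -0.84 ± 0.19 (SE, limma unadjusted p = 0.0021, adjusted p = 0.23). At this low level the log2 fold change of *Sema3d* ran from -0.98 to -0.35 over the alternatives. *Sema3b* (ENSMUSG00000057969, chromosome 9, 107597674 to 107609229, minus strand) stood in the other direction, at 1.21, 1.55, and 1.19 FPKM in control and at 1.96, 1.95, and 2.49 FPKM in the labelled nulls. The groups of *Sema3b* did not overlap, and the log2 fold change was 0.66 ± 0.17 (SE, limma unadjusted p = 0.0040, adjusted p = 0.33). For *Sema3a*, *Sema3e*, and *Sema3g* the log2 fold changes were 0.02, -0.11, and 0.05. *Sema3c* was at 0.267 ± 0.10 and 0.430 ± 0.084 FPKM (SD, n = 3 each) with overlapping groups, and the 95% interval of its log2 fold change ran from -0.08 to 1.19. *Sema3a*, *Sema3c*, *Sema3d*, and *Sema3e* lie on chromosome 5, as does *Slit2*, which begins far from them at 47983138. Of these 5 genes *Sema3d* and *Slit2* had an unadjusted p under 0.05 (limma). Over all genes tested 3.55% were lower and 4.60% higher by that measure. A part of position in these values was not tested.

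The membrane-bound semaphorins of classes 4 to 7 differed little between the groups. All 6 class 4 genes had overlapping groups and log2 fold changes between 0.07 and 0.18. *Sema4g*, the most abundant of them, was at 39.2, 46.7, and 38.2 FPKM in control and at 43.0, 47.6, and 39.7 FPKM in the labelled nulls, with overlap. *Sema4a*, *Sema4b*, *Sema4c*, *Sema4d*, and *Sema4f* had log2 fold changes of 0.17, 0.15, 0.18, 0.07, and 0.11. In class 5, whose members carry thrombospondin repeats and are known to keep retinal processes out of the outer retina, *Sema5b* was at 33.3, 35.7, and 31.7 FPKM and at 26.2, 39.1, and 34.6 FPKM, with overlap. *Sema5a* was at 6.78, 6.94, and 6.51 FPKM in control and at 7.63, 8.58, and 7.63 FPKM in the labelled nulls without overlap, a log2 fold change of 0.23 ± 0.090 (SE, limma adjusted p = 0.59).

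Class 6 semaphorins bind plexin-A receptors and act in the layering of inner retinal processes. *Sema6a*, the highest of the 4, was at 13.8, 15.8, and 13.1 FPKM in control and at 16.3, 17.8, and 14.2 FPKM in the labelled nulls. Its groups overlapped, as did those of *Sema6b* and *Sema6c*, with log2 fold changes of 0.09 and 0.13. *Sema6d* was at 4.22, 4.34, and 3.70 FPKM and at 5.12, 4.65, and 4.96 FPKM without overlap, a log2 fold change of 0.26 ± 0.11 (SE, limma adjusted p = 0.60). *Sema7a*, the membrane-anchored class 7 member, was at 17.0, 17.1, and 16.1 FPKM and at 17.1, 21.0, and 18.4 FPKM, with overlapping groups. Summed over all 20 semaphorin genes, the level was 233 to 246 FPKM in control and 237 to 279 FPKM in the labelled nulls.

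Plexins are the semaphorin receptors, and the plexin-A genes differed among themselves. *Plxna4*, which encodes a receptor for class 6 and, with neuropilins, class 3 semaphorins, is ENSMUSG00000029765 on chromosome 6, from 32144268 to 32588192 on the minus strand. It was at 3.33, 4.53, and 3.12 FPKM in control and at 2.33, 2.51, and 2.09 FPKM in the labelled nulls. The groups did not overlap, with a log2 fold change of -0.62 ± 0.16 (SE, limma unadjusted p = 0.0046, adjusted p = 0.35). *Plxna2*, a receptor of *Sema6a*, was at 35.9, 36.8, and 37.0 FPKM and at 35.7, 29.0, and 29.7 FPKM, and labelled null replicate 1 lay just under the lowest control value. Its log2 fold change was -0.22 ± 0.089 (SE, limma adjusted p = 0.59). *Plxna1* was at 14.1, 16.2, and 14.3 FPKM in control and at 17.96, 19.4, and 15.9 FPKM in the labelled nulls, overlapping at the highest control value, with a log2 fold change of 0.25 ± 0.098 (SE, limma adjusted p = 0.59). Of the exon bases of *Plxna1*, 10.7% are shared with *Gm26811*. *Plxna3* had a log2 fold change of 0.03, with a 95% interval from -0.16 to 0.22.

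*Plxnb1* and *Plxnb2* were the most abundant plexins. *Plxnb2* (ENSMUSG00000036606, chromosome 15, 89155549 to 89180788, minus strand), a receptor for class 4 semaphorins, was at 42.1, 42.6, and 43.1 FPKM in control and at 48.5, 55.8, and 47.8 FPKM in the labelled nulls. The control values lay within 1 FPKM of each other and below all others, and the log2 fold change was 0.25 ± 0.077 (SE, limma unadjusted p = 0.012, adjusted p = 0.48). *Plxnb1* had overlapping groups at 42.1 ± 2.3 and 45.5 ± 4.8 FPKM (SD, n = 3 each). *Plxnd1*, known for its role in blood vessels, was at 4.05, 4.02, and 3.85 FPKM in control and at 4.11, 5.92, and 4.06 FPKM in the labelled nulls. The groups of *Plxnd1* did not overlap but its unadjusted p was 0.20 (limma), with labelled null replicate 2 standing alone. *Plxnc1*, the receptor of *Sema7a*, was at 4.42 ± 0.12 and 4.49 ± 0.29 FPKM.

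The neuropilins lack a signalling domain of their own and serve plexins as co-receptors. *Nrp2* was at 5.36, 6.43, and 5.55 FPKM in control and at 7.13, 7.29, and 6.30 FPKM in the labelled nulls. Labelled null replicate 3 of *Nrp2* lay under the highest control value, and the log2 fold change was 0.25 ± 0.11 (SE, limma adjusted p = 0.61). *Nrp1*, which also serves as a receptor of vascular endothelial growth factor, was at 4.29 ± 0.39 and 4.81 ± 0.37 FPKM (SD, n = 3 each), with overlap.

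**Figure D3:**
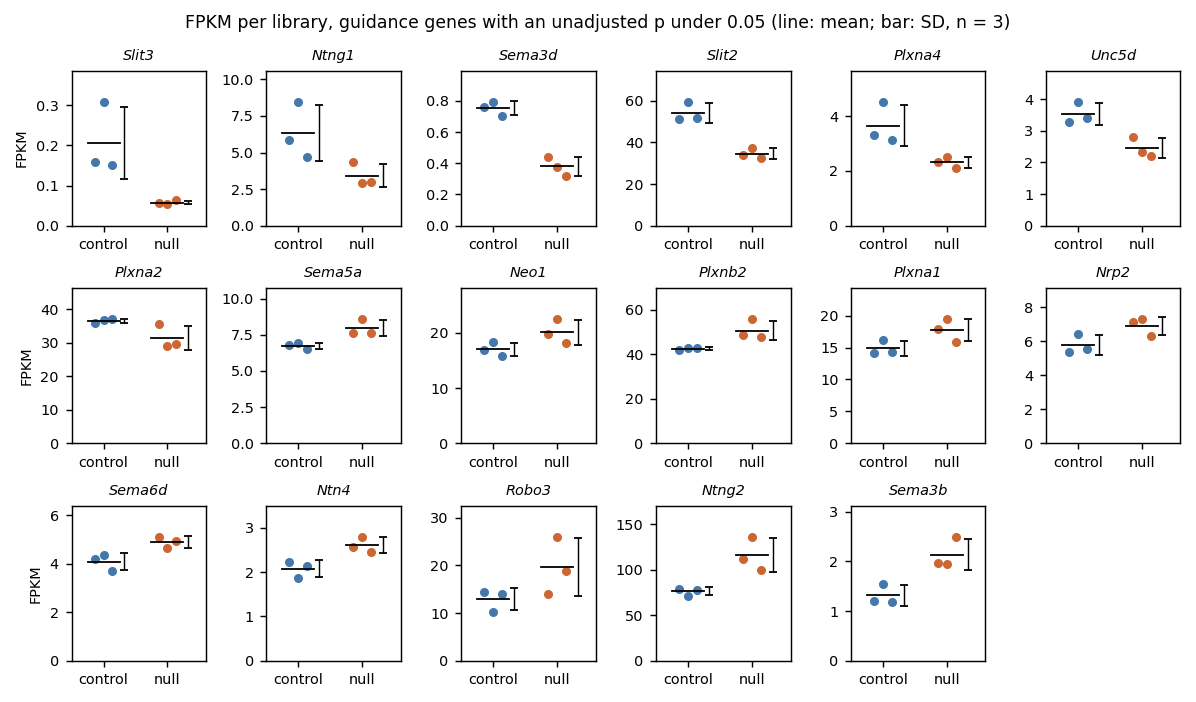
FPKM (vertical axes, from 0) is shown for each library of the 17 genes with an unadjusted p under 0.05, control on the left and labelled null on the right, with the mean as a line and the SD as a bar (n = 3). *Slit2* lies at 51.4 to 59.6 against 32.5 to 37.4 FPKM, and *Robo3* overlaps.

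Some related genes within a family had log2 fold changes of opposite sign. Of these, 5 pairs, chosen after the values were seen, are given as ratios within each library with no test. Other families went one way, as did the class 4 and class 6 semaphorins, with all 6 and all 4 genes above 0. Of all genes tested, 53.3% were above 0. *Sema4c*, *Sema4d*, and *Sema6c* kept this sign in 13 of 14 alternatives, with lowest values of -0.001, -0.03, and -0.01, so these directions are of small changes. *Slit1* was at 0.106, 0.0954, and 0.107 of the level of *Slit2* in the control libraries and at 0.181, 0.183, and 0.169 in the labelled nulls. *Plxna1* was at 4.25, 3.58, and 4.59 times *Plxna4* in control and at 7.70, 7.75, and 7.61 times in the labelled nulls. *Unc5a* was at 2.67, 2.58, and 2.87 times *Unc5d* in control and at 4.17, 5.45, and 4.44 times in the labelled nulls. In none of these 3 pairs, nor in *Ntng2* over *Ntng1*, nor in *Sema3b* over *Sema3d* (1.58 to 1.95 against 4.43 to 7.84), did the groups overlap. Each pair sets a gene above 0 over a gene already lower without overlap. The choice of pairs thus favoured this separation, which is no further result. The groups of *Slit1*, *Plxna1*, and *Unc5a* themselves overlapped.

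**Figure D4:**
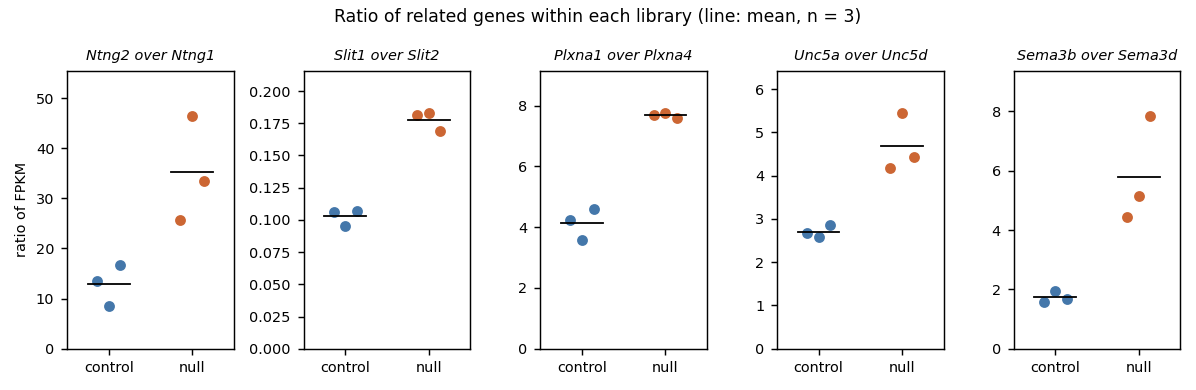
The ratio of FPKM of 2 related genes (vertical axes, from 0) is shown in each library, with the mean of each group as a line (n = 3). *Plxna1* over *Plxna4* lies between 7.61 and 7.75 in the labelled nulls and between 3.58 and 4.59 in control.

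The lower and higher genes also differed in the span of the annotated gene, from first to last exon, which was noticed after their values were seen. The 7 lower genes spanned 198.7 to 587.3 kb, with a median of 364.0 kb (198.7 to 572.9 kb and 344.3 kb without *Slit3*), and the 10 higher genes 11.6 to 577.8 kb, with a median of 82.5 kb. Of the 14 members tested that span at least 200 kb, 6 were lower and 2 were higher at an unadjusted p under 0.05, and without *Slit3* 5 of 13 were lower. Among all 924 genes tested of that span, 6.82% were lower and 6.93% higher, and their median log2 fold change was 0.02.

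Promoter windows were listed for 42 of the 51 genes. The homeodomain core TAATTA, read on both strands, was in 1 of their 55 windows, that of *Robo3*, and is in 5.29% of all 32851 windows. The bHLH motif CATATG was in 0 of the 55 windows and in 3.91% of all windows. The *Robo3* window, at chr9:37433126-37433425 on the minus strand of GRCm38.p6, is shown with the motif in capitals, starting at position 150 counted from 1 at the 5′ end:
Robo3: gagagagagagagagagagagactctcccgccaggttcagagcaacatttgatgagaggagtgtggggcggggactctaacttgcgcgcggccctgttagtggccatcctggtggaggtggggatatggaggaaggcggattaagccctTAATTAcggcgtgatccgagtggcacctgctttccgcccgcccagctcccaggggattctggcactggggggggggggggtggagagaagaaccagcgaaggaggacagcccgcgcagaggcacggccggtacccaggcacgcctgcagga
A match of these letters is a description of the sequence and not a binding site, and their lack in a window says nothing of the factor.

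The other genes of these pathways were taken from a list of 76 effectors, co-receptors, and binding partners, of which 75 were tested. At an adjusted p under 0.05 there were 0 (limma), and at an unadjusted p under 0.05 there were 4 lower and 8 higher, which is 5.33% and 10.7% of those tested, beside 3.55% and 4.60% of all genes tested. *Ablim1*, an actin-binding protein that acts in axon guidance downstream of netrin, was at 20.4, 26.4, and 20.6 FPKM in control and at 15.6, 13.1, and 14.5 FPKM in the labelled nulls. Its groups did not overlap, and the log2 fold change was -0.63 ± 0.12 (SE, limma unadjusted p = 6.435e-04, adjusted p = 0.12). *Nell2*, a secreted ligand of *Robo3*, was at 24.0, 24.8, and 21.7 FPKM and at 29.5, 33.2, and 30.1 FPKM, also without overlap (log2 fold change 0.40 ± 0.082, SE, limma unadjusted p = 0.0012, adjusted p = 0.17).

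Binding partners of the netrin-Gs and UNC5 receptors were on the list as well. *Lrrc4*, the synaptic partner of *Ntng2*, was at 7.18, 6.89, and 7.11 FPKM in control and at 8.45, 10.5, and 8.19 FPKM in the labelled nulls, a log2 fold change of 0.35 (limma unadjusted p = 0.014). *Flrt3*, a ligand of UNC5 receptors, was at 3.41, 3.39, and 3.37 FPKM and at 2.82, 2.60, and 2.83 FPKM, and its log2 fold change was -0.29 (limma unadjusted p = 0.024). In both genes the groups did not overlap. Their relatives on the list, *Lrrc4c*, *Flrt1*, and *Flrt2*, had overlapping groups and log2 fold changes of 0.05, 2.4e-05, and -0.03. The heparan sulfate proteoglycans *Sdc2* and *Sdc4*, of the kind that binds Slits, had log2 fold changes of 0.43 and -0.30, and *Farp2*, a plexin-A effector, had one of -0.49. *Dpysl4*, *Nrcam*, *Kdr*, *Cd72*, and *Srgap3* had log2 fold changes of 0.27, 0.20, 0.32, 0.18, and 0.16. Without 1 library in turn, from 2 to 6 were lower and from 3 to 13 higher by the unadjusted measure, while over all genes the shares ran from 2.01% to 6.03% and from 2.49% to 7.01%. Of the 75 genes, 6 lay lower and 17 higher without overlap between the groups, 8% and 22.7% beside 6.13% and 8.10% of all genes tested. The groups of *Kdr* overlapped.

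Cell type markers moved with the label in these libraries and are given beside the values above. Of 14 bipolar markers, 12 had a log2 fold change below 0 and 11 of these an unadjusted p under 0.05 (limma), as had 1 above 0, and their summed level was 869 to 1030 FPKM in control and 648 to 733 FPKM in the labelled nulls. The 10 amacrine markers summed to 502 to 546 and 547 to 588 FPKM, with 9 above 0, 4 of these at an unadjusted p under 0.05 (limma). These sums nearly met, and their separation depended on *Pax6*, the most abundant, at 208, 207, and 206 against 237, 243, and 233 FPKM. The 8 cone markers summed to 687 to 829 and 888 to 1014 FPKM, with 6 above 0, 4 of these at an unadjusted p under 0.05 (limma). *Arr3* went the other way without overlap, from 28.7, 29.7, and 30.2 FPKM in control to 16.9, 8.53, and 12.7 FPKM. The 8 Müller glia markers summed to 641 to 714 and 760 to 808 FPKM, with 7 above 0, 2 of these at an unadjusted p under 0.05 (limma). Their median log2 fold change was 0.12. *Apoe*, the most abundant of them, was at 272, 301, and 291 against 360, 356, and 388 FPKM. The separation of the Müller glia sums depended on *Apoe*, and of the other markers only *Dkk3* had groups that did not overlap. Markers of tissue outside the retina also summed higher. The 9 pigment epithelium markers summed to 22.1 to 45.3 and 48.4 to 85.0 FPKM, with 8 above 0. The 8 connective tissue markers summed to 22.6 to 29.8 and 49.5 to 67.7 FPKM, with 5 of the 6 tested above 0. *Col3a1* was below 0 without overlap (log2 fold change -0.29). *Lum*, which was not tested, was at 0 in every library except labelled null replicate 3, at 0.0418 FPKM. For the 10 endothelial markers 9 were below 0, with overlapping sums of 69.1 to 84.6 and 74.2 to 84.0 FPKM. Sums also overlapped for the rod, ganglion cell, horizontal cell, astrocyte, microglia, pericyte, lens, and cycling progenitor markers, and the 8 rod markers, at 2923 to 4039 FPKM, were present in all libraries. Of these, 7 of the 8 rod markers were below 0 (median log2 fold change -0.31) and all 7 cycling progenitor markers were above 0 (median 0.64, 1 with an unadjusted p under 0.05, limma). The part of any of these cell types in the values of the guidance genes was not tested.

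**Figure D5:**
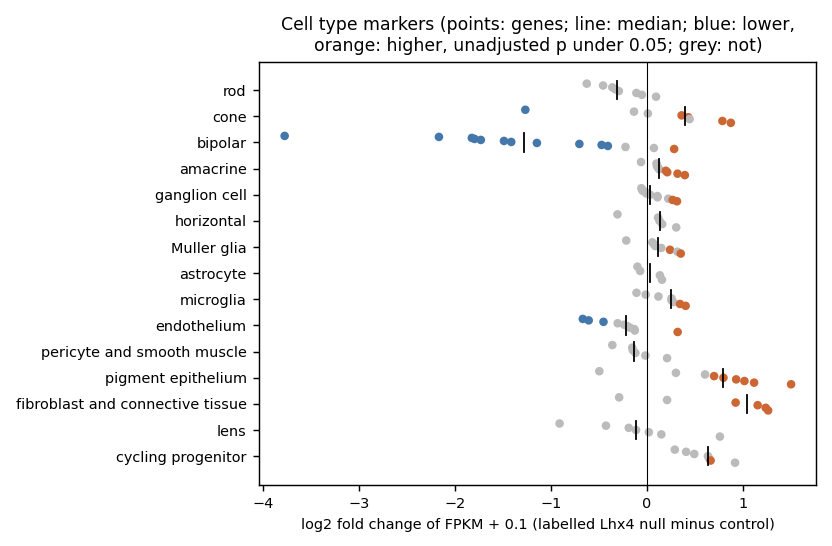
Each point is the log2 fold change of FPKM + 0.1 (horizontal axis, labelled null libraries minus control) of 1 marker gene, by cell type (rows), with the median as a line. The bipolar median is -1.28, and those of pigment epithelium and connective tissue are 0.80 and 1.04.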

How the data were processed

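Retinal RNA was compared at P7 between 3 control mice and 3 mice labelled *Lhx4* null (1 library each). Per the labels and the methods, the authors mapped paired-end reads to GRCm38 with TopHat2 and used Cufflinks for expression, giving the FPKM values deposited for each gene. Program versions, annotation, and use of strand are not given in the sources used here. The sample labels gave groups and replicate numbers. Of the columns of values, 0 were left unused. FPKM are not counts, so no count model was fitted.

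Genes averaging 0.1 FPKM or more across the 6 libraries were tested as log2(FPKM + 0.1) with limma 3.58.1 in R 4.3.3 (lmFit, then eBayes with its trend option, two-sided, without block or covariate), with Benjamini-Hochberg adjustment over all 15200 genes. An exact permutation test of 3 against 3 libraries cannot go below p = 0.1. For a repeated symbol, lists used the row of highest mean. The rule for named genes printed all 6 values for members with an unadjusted p under 0.05, without overlap, among the 6 largest changes at a mean of at least 1 FPKM, or highest in their role, and named partner genes with an unadjusted p under 0.05. *Lrrc4c*, *Flrt1*, and *Flrt2* were named beyond this rule. The members and lists were chosen with earlier results of these data known. Alternatives changed the pseudocount, the filter, the scaling, the trend, the block, and the libraries.

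Positions and exon overlap came from GENCODE vM21 on GRCm38, by identifier (51 of 51 members found), and promoters from RefSeq on GRCm38.p6. Relative depth is the most frequent ratio between libraries of values under 0.1 FPKM, over 5708 genes. Total counts per library were not used here, so no counting interval is given. Plots were drawn with Python 3.11.15 and matplotlib 3.10.9.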

Additional observations from a re-analysis of the deposited data

How the results depend on the processing

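Of the guidance genes, *Slit2* was lower at an adjusted p under 0.05 in the main comparison, with a pseudocount of 1 or 0.01 FPKM, with a minimum mean of 1 FPKM, and with both other scalings. It was not, and the count was 0, without the filter on low values, without the mean-variance trend, with the replicate block, and in each fit that left out 1 library (0 to 0). The largest adjusted p of *Slit2* was 0.15 (limma, without the trend). At an unadjusted p under 0.05, from 6 to 7 members were lower and from 4 to 11 were higher when 1 library was left out, while over all genes tested the shares in those fits ran from 2.01% to 6.03% lower and from 2.49% to 7.01% higher. Among the partner genes from 2 to 6 were lower and from 3 to 13 were higher in those fits, against 4 and 8, with 13 without labelled null replicate 3, 3 without control replicate 1 or 3, 4 without labelled null replicate 2, and 5 without control replicate 2. Those lower were 2 without any 1 control library or without labelled null replicate 2. The fit without the filter tested 18190 genes. For the other changes the cause was not tested. The median log2 fold change of the members stayed between 0.07 and 0.17, and the median over all genes tested between -0.003 and 0.02.

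With the replicate number as a block, 6 members were higher at an unadjusted p under 0.05, beside 4% of all genes tested, and the adjusted p of *Slit2* was 0.051 (limma). The numbers name different mice, and the deviations of same-numbered libraries from their group means correlated with r = -0.127, -0.000198, and 0.162 over genes, so the libraries share only a number. Not every library correlated best with its own number. Every control library was deeper than every labelled null library, and the members tested with the lowest levels were *Slit3* and *Sema3c*.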
